A study of Mus musculus with 30 samples.

Results

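Mouse embryonic stem cells that always include exon 5 of Puf60 were followed from the stem cell stage into embryoid bodies. The line is labelled Puf60_pEx5_HOM, and its members here are the 4 libraries titled for it at EB8 (2 libraries, A and B) and at ESC (2 libraries, A and B), of 30 in the series. It was made from CGR8 embryonic stem cells by CRISPR-Cas9 so that both alleles carry constitutive exon 5. EB8 libraries come from aggregates at day 8, grown without the factor LIF and given 6 µM retinoic acid while they formed, and ESC libraries from the undifferentiated cells. The same stages of the parental line (WT, 4 libraries) serve as the comparison, and 3 other edited lines are set beside them: Puf60_mEx5_HOM, which lacks exon 5 on both alleles, Puf60_pEx5_HET, in which 1 allele is constitutive, and Rbm38KO. The edited lines are clonal, per the labels. The series text names independent clones without tying a clone to a library, so every p-value measures only the spread between these libraries, which may be technical.

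Puf60 is a splicing factor that binds the pyrimidine tract upstream of 3′ splice sites and helps to recruit U2 snRNP, the particle that recognises the branch point. Retinoic acid, applied to aggregates of stem cells, binds nuclear receptors that switch on genes of the posterior neural tube, while the pluripotency network is shut down. During the same transition neural splicing regulators appear, and very short exons, called microexons, begin to be included in transcripts of neuronal genes.

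RNA was polyA-selected and sequenced as stranded libraries with a mean insert of 540 nt. Expression is given as spliced reads (reads across exon junctions) in CPM, the usual per-million count, scaled between libraries. The 4 libraries held 28149468 and 26571493 such reads at EB8, against 37291910 and 38571969 at ESC. Libraries of the same group had Pearson correlations of 0.9919 to 0.9977 across genes at these 2 stages. Changes are log2 differences of CPM + 1 with their standard errors from limma, fitted on all 30 libraries. Genes count as called, or as having risen or fallen, when they changed 2-fold or more with an adjusted p (Benjamini-Hochberg) below 0.05, and n is 2 in every group. Inclusion is percent spliced in (PSI), and events count as called when PSI differed by 10 points or more with the adjusted p below 0.05. In bulk RNA, fewer cells of a type and less RNA per cell cannot be told apart.

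The edit was checked at its target. Puf60 exon 5 is a 51-nt coding exon whose length is a multiple of 3. Its PSI was 96.5 and 94.0 in Puf60_pEx5_HOM at EB8, against 99.0 and 98.3 at ESC. In WT it was 26.9 and 26.1 at EB8, against 22.4 and 20.7 at ESC. All 4 libraries of the edited line therefore lay far above all 4 of WT, as the labels say. Within the line the EB8 libraries lay 3.4 points below the ESC libraries (adjusted p = 5.78e-05), which is under the 10-point size, and the values did not overlap. The change with differentiation differed from that in WT by −8.38 points (adjusted p = 0.0078), also under that size. Puf60 itself had 294 and 317 CPM at EB8, against 364 and 353 CPM at ESC, a difference of −0.23 ± 0.07 that stayed under 2-fold and turned positive under library-total and quantile scaling (0.33 and 0.39). Rbm38, the other splicing factor edited in the series, had 36.9 and 45.0 CPM at EB8, against 71.6 and 69.0 CPM at ESC (−0.77 ± 0.18, adjusted p = 0.0006, under 2-fold).

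Markers of the 2 stages were where the labels put them. The summed level of 5 stem cell markers was 25.4 and 18.5 CPM at EB8, against 3190 and 3150 CPM at ESC. The 4 neural progenitor markers that had spliced reads summed to 637 and 620 CPM at EB8, against 42.5 and 39.2 CPM at ESC (Sox1, the fifth, has no spliced reads to count). The 5 neuron markers summed to 875 and 735 CPM at EB8, against 309 and 312 CPM at ESC. That ESC sum is mostly Stmn2, a regulator of microtubules, which had 176 and 129 CPM at EB8 and 208 and 224 CPM at ESC, while Dcx had no read at ESC. Markers of other lineages were low at EB8, with 3.92 and 5.29 CPM for mesoderm (no read of Mixl1 or Mesp1) and 5.94 and 7.23 CPM for endoderm. Those of neural crest summed to 2.77 and 3.09 CPM, of astrocytes to 2.29 and 1.74 CPM and of oligodendrocytes to 12.5 and 11.3 CPM (no read of Mog). Epithelial markers stood at 258 and 379 CPM at EB8, against 1310 and 1250 CPM at ESC, and fibroblast markers at 78.7 and 67.4 CPM at EB8, against 38.3 and 14.4 CPM at ESC. Endothelial and blood markers had 33.2 and 15.7 CPM at EB8, against 134 and 145 CPM at ESC. That ESC sum is nearly all Pecam1, with 14.1 and 6.97 CPM at EB8 and 132 and 142 CPM at ESC. Cdh5 went the other way, with 13.1 and 5.98 CPM at EB8, against 0.518 and 0.623 CPM at ESC. So did Kdr, with 5.91 and 2.73 CPM at EB8, against 1.66 and 1.87 CPM at ESC, while Hbb-y and Ptprc had hardly any reads.

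Between ESC and EB8 the line changed a large share of its transcriptome. Of 13938 genes tested, 5485 were called (39.4%), with 2898 higher at EB8 (20.8%) and 2587 lower (18.6%). The median of all genes was 0.02, and 7052 genes had a positive difference. The split depends on the scaling: with plain library totals 4348 genes were higher and 1354 lower, and the median of all genes moved to 0.45, so the list medians below are read against the median of all genes. Among the 2898 genes that rose, 2500 also rose in WT, and among the 2587 that fell, 2125 also fell in WT. The 8 genes that rose most were Cyp26b1, Hoxb5os, Dbx1, Tmem132e, Cyp26a1, Robo3, Lhx1 and Nr2f1, and the 8 that fell most were Trh, Tdh, Tdgf1, Pou5f1, Zfp42, Nphs1, Esrrb and Dnmt3l. Of the genes that rose most, Dbx1 and Lhx1 encode homeodomain factors of spinal interneurons and Robo3 a guidance receptor of commissural axons. Dbx1 had 212 and 282 CPM at EB8 and no read at ESC. Robo3 had 293 and 327 CPM at EB8, against 0.863 and 0.623 CPM at ESC (7.48 ± 0.20, adjusted p = 9.63e-19).

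The pluripotency network was shut down. All 29 tested genes of the 30 in the list of naive and core pluripotency genes fell, with a median of −4.84, against 0.02 for all genes. Their summed level was 155 and 154 CPM at EB8, against 9111 and 9285 CPM at ESC. Pou5f1, which encodes the core factor Oct4, had 11.1 and 8.42 CPM at EB8, against 1958 and 1837 CPM at ESC, and fell by 7.47 ± 0.84 (adjusted p = 4.05e-07). Nanog had 4.01 and 2.96 CPM at EB8, against 289 and 303 CPM at ESC (−6.06 ± 0.52, adjusted p = 6.73e-09). Zfp42, also called Rex1, had 3.38 and 1.58 CPM at EB8, against 437 and 476 CPM at ESC. No EB8 library came near an ESC library in any of these. Tdh, the threonine dehydrogenase on which mouse stem cells rely for one-carbon units, had 2.05 and 1.84 CPM at EB8, against 983 and 1068 CPM at ESC (−8.45 ± 0.54). Trh, the gene of thyrotropin-releasing hormone, had 0.482 and 0.559 CPM at EB8, against 516 and 592 CPM at ESC (−8.51 ± 0.68). Of 10 tested genes of the formative epiblast, 8 fell and 1 rose, with a median of −3.34, and of 12 genes of Nodal signalling and mesendoderm, 9 fell and 1 rose.

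Retinoic acid response genes were the group that the added retinoid bears on most directly. The promoters of Rarb, a retinoic acid receptor, and Cyp26a1, an enzyme that degrades retinoic acid, are shown because both hold a direct repeat of retinoid receptor half-sites within 250 bases before the start. The search took 2 half-sites of 6 bases, AGGTCA, also taken as AGTTCA, as GGGTCA and as GGTTCA, with 5 bases between them, on both strands. It found 29 of 32851 RefSeq promoters (0.0883%), and 2 of the 19 genes of the list that had a promoter sequence. The 100-base windows (RefSeq, GRCm38.p6) have the repeat in capitals, at chr14:16575477-16575576 on the minus strand and chr19:37697708-37697807 on the plus strand, where the Cyp26a1 repeat lies on the opposite strand:
Rarb: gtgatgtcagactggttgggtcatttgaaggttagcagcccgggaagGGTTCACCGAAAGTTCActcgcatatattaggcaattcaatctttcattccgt
Cyp26a1: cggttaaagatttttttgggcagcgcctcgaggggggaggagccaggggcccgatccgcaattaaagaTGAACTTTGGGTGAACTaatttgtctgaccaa
The repeat ends 36 bases before the Rarb start and 15 bases before the Cyp26a1 start. A match describes the letters and not the binding of a receptor. Of the 28 genes with such a repeat 7 were tested, of which 3 rose (Rarb, Cyp26a1 and Syndig1) and 2 fell.

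Of the 25 tested genes of retinoic acid metabolism and response (27 in the list), 18 rose and 1 fell, with a median of 3.77. Cyp26b1, the second retinoid-degrading enzyme, had 715 and 770 CPM at EB8, against 0.069 and 0.0328 CPM at ESC, and rose more than any other gene that met the rule for named genes (9.47 ± 0.49, adjusted p = 5.54e-12). Cyp26a1 had 363 and 418 CPM at EB8, against 0.932 and 1.38 CPM at ESC (7.51 ± 0.49, adjusted p = 1.4e-10). Rarb had 155 and 148 CPM at EB8, against 0 and 0.0656 CPM at ESC (7.21 ± 0.11, adjusted p = 9.41e-22). Each of these was all but silent in both ESC libraries and high in both EB8 libraries. Binding and transport proteins rose with the enzymes. The retinoic acid-binding Crabp1 had 408 and 591 CPM at EB8, against 22.6 and 22.7 CPM at ESC, and Crabp2 386 and 514 CPM at EB8, against 9.49 and 8.69 CPM at ESC. Library B was the higher of the EB8 pair in both. Stra6, the membrane receptor for retinol-binding protein, had 59.4 and 93.1 CPM at EB8, against 0.966 and 0.525 CPM at ESC, and Dhrs3, a retinaldehyde reductase, 169 and 187 CPM at EB8, against 1.69 and 1.54 CPM at ESC. Stra8, best known from the entry of germ cells into meiosis, had 458 and 398 CPM at EB8, against 3.56 and 4.43 CPM at ESC. Rarg, the retinoic acid receptor of stem cells, was the 1 member that fell, with 8.32 and 13.3 CPM at EB8, against 209 and 188 CPM at ESC (−4.11 ± 0.24). Rara, the third receptor of that family, had 167 and 178 CPM at EB8, against 135 and 130 CPM at ESC, a difference of 0.38 that was under 2-fold. On the scale of RPKM, which allows for gene length, the authors' deposited table put Crabp1 (602), Crabp2 (447) and Cyp26b1 (379) highest in this list at EB8.

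Hox genes, the homeobox factors that encode position along the body axis, came on from near 0. Of the 39 in the list 17 did not reach the filter on low values. The 22 genes that reached it together had 893 and 894 CPM at EB8, against 0.518 and 0.230 CPM at ESC. The 22 that could be tested passed the filter only through differentiated groups, so that 20 of them rose and none fell is a description and not support for a rise of the family. In part this also holds for the neural lists below, in which 18 of 24 progenitor, 31 of 35 early neuron and 32 of 34 synapse genes passed the filter, and, through ESC, for 29 of 30 pluripotency genes. The Hox genes tested were numbered 1 to 9 in their clusters, and none numbered 10 or above passed the filter. Hoxb6 had 106 and 106 CPM at EB8, against 0.0345 and 0.0328 CPM at ESC (6.70 ± 0.13, adjusted p = 1.11e-20). Hoxb5 had 95.3 and 101 CPM at EB8 and no read at ESC, which puts it at least 2480-fold higher at EB8 from a floor of 3 reads over both ESC libraries, a bound that covers counting error only. At the 3′ end of the clusters Hoxb1 had 4.10 and 5.89 CPM at EB8, against 0.069 and 0 CPM at ESC. In the middle, Hoxd4 had 71.8 and 93.7 CPM and Hoxa5 79.7 and 74.9 CPM at EB8, both with no read at ESC. Towards the 5′ end Hoxb9 had 83.2 and 76.2 CPM at EB8, against 0.104 and 0 CPM at ESC, whereas Hoxa7 had 0.392 and 0.658 CPM at EB8 and Hoxd8 0.814 and 0.592 CPM, and neither passed the fold size. The antisense transcript Hoxb5os within the HoxB cluster had 395 and 398 CPM at EB8 and no read at ESC. How strand was used in counting is not given in the sources used here. Set beside WT, Hoxb7, Hoxb8 and Hoxb9 had lower levels at EB8 in the edited line. Hoxb9 had 83.2 and 76.2 CPM in Puf60_pEx5_HOM at EB8 and 149 and 180 CPM in WT at EB8, and the change from ESC was smaller by 0.75 ± 0.24 (adjusted p = 0.0426). Hoxb7 had 9.92 and 8.78 CPM in Puf60_pEx5_HOM at EB8 and 18.8 and 17 CPM in WT at EB8, with a change smaller by 0.75 ± 0.19 (adjusted p = 0.0133). Hoxb8 had 82.7 and 84.8 CPM in Puf60_pEx5_HOM at EB8 and 113 and 111 CPM in WT at EB8, and its change differed by −0.42 ± 0.23 (adjusted p = 0.288). All 3 differences of change were under 2-fold, and no Hox gene was called in that test.

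**Figure D1:**
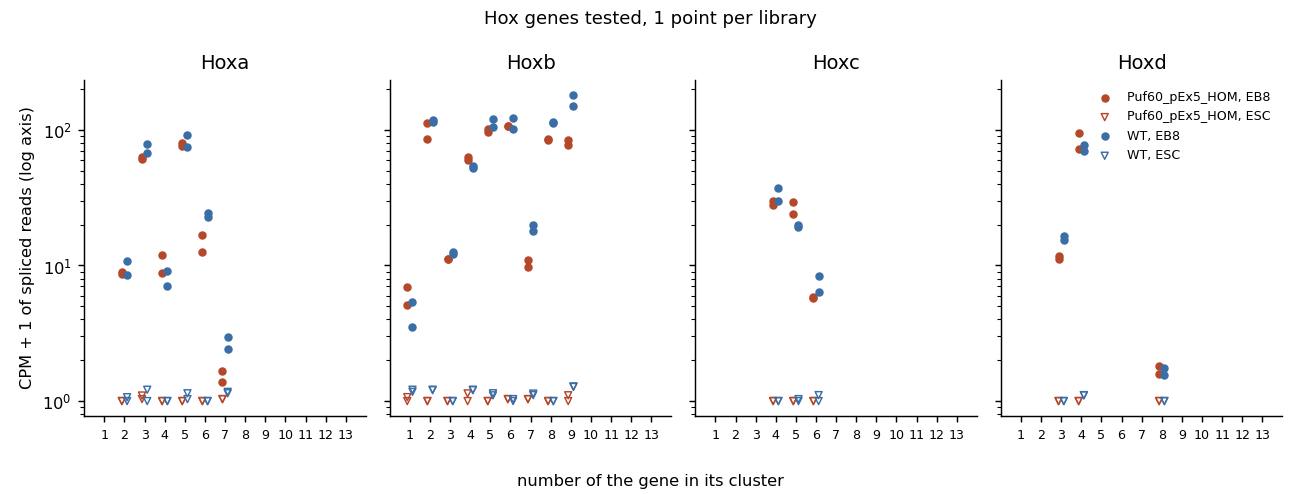
Spliced reads as CPM + 1 (log axis) of 21 tested Hox genes by their number within the cluster, with 1 point per library of Puf60_pEx5_HOM and WT at EB8 and ESC. EB8 libraries of both lines stand above the ESC libraries from Hoxb1 to Hoxb9, and Hoxb7 and Hoxb9 lie lower in Puf60_pEx5_HOM than in WT at EB8.

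Genes of neural progenitors formed the next group. Of 18 tested, 16 rose and none fell, with a median of 3.91, and their summed level was 3398 and 3579 CPM at EB8, against 590 and 511 CPM at ESC. Fabp7, a fatty acid-binding protein of radial glia, had 194 and 112 CPM at EB8, against 0.104 and 0 CPM at ESC (7.14 ± 0.30, adjusted p = 1.31e-13). The Notch effector Hes5 had 240 and 268 CPM at EB8, against 1.21 and 0.853 CPM at ESC, and Sox9, a progenitor and glial fate factor, 57.8 and 65.9 CPM at EB8, against 0.0345 and 0.0328 CPM at ESC. Pax6 was already expressed in stem cells, with 153 and 181 CPM at EB8, against 34.4 and 29.7 CPM at ESC (2.35 ± 0.18). The Notch pathway list had 14 genes higher and 3 lower of 25, among them the ligand Dll1 with 143 and 150 CPM at EB8, against 8.15 and 4.99 CPM at ESC. Genes that pattern the neural tube from dorsal to ventral were mixed, with 15 higher and 2 lower of 24 and a median of 1.55. The dorsal factor Pax3 had 35.2 and 30.2 CPM at EB8, against 0.069 and 0 CPM at ESC (5.02 ± 0.35). The ventral factor Olig2 had 0.0905 and 0.197 CPM at EB8, against 0.0345 and 0 CPM at ESC, and was not called. In the Hedgehog list 8 rose and 4 fell of 15, but only 4 rose with a pseudocount of 5 CPM and 5 without library B at EB8.

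Genes of neurogenesis and young neurons rose almost as a whole, and genes of transmission less fully. Of 31 tested genes of the first list 28 rose and none fell (median 3.58), and their summed level was 2665 and 2484 CPM at EB8, against 471 and 465 CPM at ESC. Dcx, the microtubule protein of migrating neurons, had 68.2 and 55.5 CPM at EB8 and no read at ESC, which makes it at least 1560-fold higher at EB8. Myt1, a zinc finger factor of early neurons, had 106 and 90.6 CPM at EB8, against 0.104 and 0.328 CPM at ESC (6.36 ± 0.14, adjusted p = 8.93e-20). Tubb3, the neuronal beta-tubulin, had 376 and 335 CPM at EB8, against 78.6 and 68.1 CPM at ESC (2.26 ± 0.20). In each of them both EB8 libraries lay above both ESC libraries. The proneural factor Neurog2 had 11 and 9.53 CPM at EB8, with no read at ESC. Of 32 tested genes of transmitters and synapses 22 rose and 1 fell, with a median of 1.66, and 13 rose with a pseudocount of 5 CPM, since most of these genes are low. Their summed level was 354 and 298 CPM at EB8, against 74.2 and 85.6 CPM at ESC. Glra1, a glycine receptor subunit, had 40.8 and 33.9 CPM at EB8 and no read at ESC. The vesicle fusion protein Snap25 had 31.4 and 23.4 CPM at EB8, against 0.449 and 0.361 CPM at ESC (4.32 ± 0.17, adjusted p = 2.33e-15). The member that fell was Grin1, the obligatory subunit of NMDA receptors, with 5.82 and 5.42 CPM at EB8, against 14.9 and 20.4 CPM at ESC (−1.48 ± 0.22, adjusted p = 4.84e-06).

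**Figure D2:**
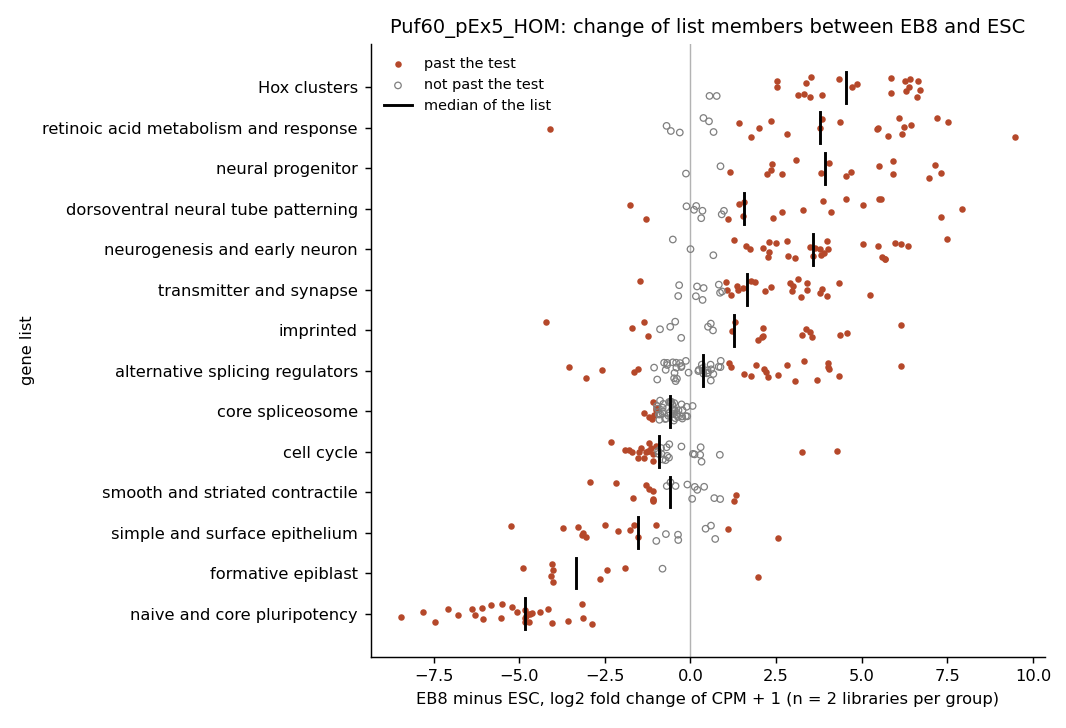
Log2 difference of CPM + 1 (EB8 minus ESC in Puf60_pEx5_HOM) of every tested member of 14 gene lists, 1 point per gene, filled where the gene was called and open where it was not, with a bar at the list median. The pluripotency list lies wholly below 0 (median −4.84), and the neural progenitor and early neuron lists lie mostly above it (medians 3.91 and 3.58).

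Lists outside the neural lineage were mixed. Of 11 mesoderm and muscle genes 3 rose and 1 fell, of 22 endoderm genes 6 rose and 6 fell, of 15 neural crest genes 2 rose and 3 fell, and of 24 fibroblast and matrix genes 12 rose and 3 fell. Of 21 genes of simple and surface epithelium 12 fell and 2 rose (median −1.54). Cdh1, the epithelial cadherin of stem cells, had 79.2 and 130 CPM at EB8, against 1017 and 978 CPM at ESC (−3.29 ± 0.45). Of 22 stress and heat shock genes 13 fell and none rose (median −1.83). Of 19 DNA methylation genes 8 fell and 4 rose. Among 35 cell cycle genes 16 fell and 2 rose (median −0.93), but this rests on the scaling: with library totals 4 fell and 3 rose (median −0.37), and with quantile normalization 5 fell and 2 rose (median −0.44). The D-type cyclin Ccnd2 had 204 and 286 CPM at EB8, against 14.8 and 8.76 CPM at ESC (4.29 ± 0.31), and Ccne1, a G1/S cyclin, 59.4 and 63.0 CPM at EB8, against 342 and 277 CPM at ESC (−2.31 ± 0.19).

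Imprinted genes, expressed from 1 parental allele, rose in 13 and fell in 4 of 24 (median 1.27). Dlk1, a Notch-like ligand, had 325 and 440 CPM at EB8, against 4.28 and 4.49 CPM at ESC (6.14 ± 0.29, adjusted p = 3.98e-13). Igf2, a fetal growth factor, had 85.1 and 95 CPM at EB8, against 4.07 and 1.87 CPM at ESC, and its neighbour H19, a noncoding RNA of the other parental allele, had 207 and 185 CPM at EB8, against 9.80 and 7.54 CPM at ESC. Both rose, by 4.57 ± 0.45 and 4.35 ± 0.39. Phlda2, a growth-restraining gene of the placenta, had 3.05 and 2.66 CPM at EB8, against 76.1 and 66.0 CPM at ESC (−4.22 ± 0.25).

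Neural regulators of splicing appeared at EB8, while calls among genes of the core machinery depended on the scaling. Of 57 tested regulators 18 rose and 5 fell, with a median of 0.38. Srrm4, which promotes microexon inclusion in neurons, had 31.7 and 34.4 CPM at EB8, against 0.759 and 0.623 CPM at ESC (4.33 ± 0.15, adjusted p = 1.07e-16), and its relative Srrm3 had 22 and 21 CPM at EB8, against 0.380 and 0.394 CPM at ESC. The polypyrimidine tract proteins moved in opposite directions. Ptbp1, the form of nonneuronal cells, had 402 and 501 CPM at EB8, against 1343 and 1235 CPM at ESC (−1.52 ± 0.20), while Ptbp2, the form of neural cells, had 250 and 198 CPM at EB8, against 44.9 and 46.6 CPM at ESC (2.26 ± 0.14). Nova1, a neuronal RNA-binding protein, had 40.3 and 34.6 CPM at EB8, against 2.31 and 1.71 CPM at ESC (3.68 ± 0.14). The progenitor protein Msi1 had 409 and 460 CPM at EB8, against 26.1 and 25.2 CPM at ESC (4.03 ± 0.12). Esrp1, the epithelial splicing regulator, had 6.03 and 7.79 CPM at EB8, against 63.9 and 63.2 CPM at ESC (−3.04 ± 0.35). The repressor Rest, which holds neuronal genes silent outside neurons, had 4.28 and 6.44 CPM at EB8, against 78.7 and 66.6 CPM at ESC (−3.55 ± 0.23). Of 45 genes of the core spliceosome and 3′ splice site recognition 7 fell and none rose (median −0.58), with 0 called in either direction under library totals (median −0.02) and under quantile scaling (median −0.00) in limma. The largest of these were Cdc5l (155 and 147 CPM at EB8, against 398 and 373 CPM at ESC) and Snrpd2 (158 and 160 CPM at EB8, against 373 and 370 CPM at ESC), at −1.35 ± 0.07 and −1.22 ± 0.12.

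**Figure D3:**
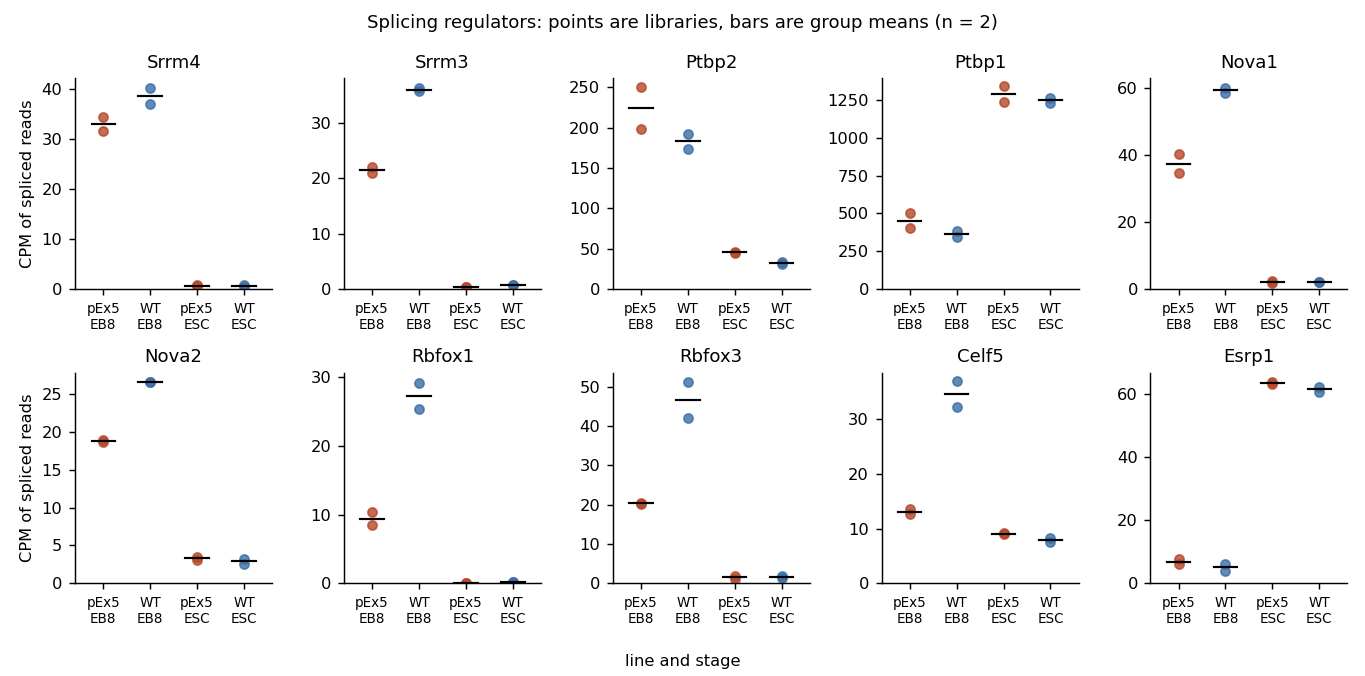
Spliced reads (CPM) of 10 splicing regulators in each library of Puf60_pEx5_HOM and WT at EB8 and ESC, with points for libraries and bars for group means. Srrm4, Srrm3, Ptbp2, Nova1 and Nova2 are high at EB8 in both lines, Ptbp1 and Esrp1 are high at ESC, and Rbfox1, Rbfox3 and Celf5 are lower in Puf60_pEx5_HOM than in WT at EB8.

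Splicing changed alongside. Of 18100 events tested 2401 were called (13.3%), with 1470 of higher PSI at EB8 (8.12%) and 931 of lower PSI (5.14%). Without library A at ESC the higher count was 882. Of the 1470 events that rose 961 also rose in WT, and of the 931 that fell 619 also fell in WT. By class, 630 of 6268 exons longer than 27 nt rose and 540 fell (median difference 0.05 points), 546 of 5724 retained introns rose and 273 fell (median 3.78 points), 55 of 3420 alternative 3′ splice sites rose and 44 fell, and 77 of 2360 alternative 5′ splice sites rose and 62 fell. Single libraries weigh on these counts. Without library A at ESC 241 introns rose and 211 fell, and without library B at EB8 313 rose and 193 fell, while without library A at EB8 503 rose and 176 fell. Alternative 3′ sites that rose numbered 30 without library A at ESC, 32 without library B at EB8 and 36 without library A at EB8, and those that fell 29 without library A at ESC and 28 without library B at ESC. Alternative 5′ sites that rose numbered 51 and 49 without library A and without library B at ESC, and 39 fell without library B at EB8.

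Microexons, here exons of 3 to 27 nt, stood out by class. Of 328 tested 162 rose (49.4%) and 12 fell, with a median difference of 11.9 points. Their median PSI was 35.8 and 32.2 in the EB8 libraries, against 7.11 and 8.81 in the ESC libraries. Those with a length that is a multiple of 3, which keep the reading frame, rose in 148 of 259 (57.1%) with a median of 14.1 points, and those of other lengths in 14 of 69 (20.3%) with a median of 3.24 points. The filter on mean PSI (5 to 95) bears on these shares. A microexon skipped at ESC in both lines passed it only through inclusion at EB8, so it could rise but not fall. Microexons skipped at both stages were dropped. The shares that rose therefore describe the microexons kept, and are not by themselves support for a rise of the class. Leaving out a single library of the line left 49 to 70 of 131 rising at 3 to 15 nt, where all libraries gave 71, and 64 to 83 of 197 at 16 to 27 nt, where all libraries gave 91.

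Some of the microexons that changed are shown as examples, chosen after their values were seen. Those of 12 nt from L1cam, Agap1, Agrn and Ank3, the 18-nt exons of Fry and Src and the 24-nt exon of Tet2 are printed to show how little sequence is gained or lost. The exon is in capitals between 15 bases of each neighbouring exon in the spliced transcript (GRCm38, GENCODE vM21), and all 7 are coding and a multiple of 3 in length. Their positions are chrX:73855652-73855663 (L1cam, minus), chr1:89610284-89610295 (Agap1, plus), chr4:156169546-156169557 (Agrn, minus), chr10:69929447-69929458 (Ank3, plus), chr5:150488961-150488978 (Fry, plus), chr2:157458843-157458860 (Src, plus) and chr3:133479342-133479365 (Tet2, minus):
L1cam: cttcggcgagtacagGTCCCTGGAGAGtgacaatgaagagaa
Agap1: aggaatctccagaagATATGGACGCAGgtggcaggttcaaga
Agrn: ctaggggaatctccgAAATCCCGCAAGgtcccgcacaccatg
Ank3: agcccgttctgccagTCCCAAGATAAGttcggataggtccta
Fry: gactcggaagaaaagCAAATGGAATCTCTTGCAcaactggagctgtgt
Src: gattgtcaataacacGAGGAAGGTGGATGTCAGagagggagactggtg
Tet2: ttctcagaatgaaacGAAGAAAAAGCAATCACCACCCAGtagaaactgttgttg
The L1cam exon, part of the cytoplasmic tail of this neural adhesion molecule, had a PSI of 98.3 and 100 at EB8, against 0 and 0 at ESC (adjusted p = 2.7e-06). Its ESC value rests on 11 and 11 reads, and a count of 0 in them allows a PSI of up to 13.6. The Agap1 exon, in a GTPase-activating protein of endosomal traffic, had 67.3 and 67.9 at EB8, against 0 and 0 at ESC (up to 1.92 allowed by its reads). The Agrn exon, the insert known as the y site of neuronal agrin, had 71.5 and 73.0 at EB8, against 6.14 and 17.1 at ESC. All 3 were low in both ESC libraries and above 60 in both EB8 libraries. The exon of Ank3, the scaffold of the axon initial segment, had 65.2 and 45.3 at EB8, against 0 and 0 at ESC (up to 3.06), and that of Fry 66.4 and 61.1 at EB8, against 0 and 0 at ESC (up to 0.971). The Src exon, known as N1 and present in the neuronal form of this tyrosine kinase, had 40.0 and 36.8 at EB8, against 8.56 and 19.9 at ESC (24.2 points, adjusted p = 0.000853). The Tet2 exon moved the other way, with 8.94 and 7.34 at EB8, against 93.7 and 97.6 at ESC, in a gene for a 5-methylcytosine oxidase. A 17-nt exon of Dnmt3b, a de novo DNA methyltransferase, had 23.1 and 26.9 at EB8, against 98.4 and 98.5 at ESC.

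Longer exons included several of neuronal genes. The 93-nt exon of Map2, which encodes 1 of the microtubule-binding repeats of this neuronal protein, had a PSI of 4.78 and 5.15 at EB8, against 93.6 and 96.6 at ESC (−90.1 points, adjusted p = 1.66e-10). It is shown (chr1:66431527-66431619, plus strand, GRCm38, GENCODE vM21) because it was lost almost wholly while the gene itself rose:
Map2: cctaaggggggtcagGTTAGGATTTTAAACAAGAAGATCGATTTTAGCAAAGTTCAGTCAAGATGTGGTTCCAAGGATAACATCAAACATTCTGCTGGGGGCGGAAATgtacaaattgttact
Map2 had 162 and 133 CPM at EB8, against 9.70 and 9.84 CPM at ESC (3.78 ± 0.13). A 108-nt exon of Snap91, a clathrin assembly protein of synapses, had a PSI of 92.6 and 88.2 at EB8, against 1.99 and 12.9 at ESC, and a 704-nt exon of Calca, the gene of calcitonin and its related peptide, had 77.0 and 74.6 at EB8, against 0.13 and 0 at ESC. The 171-nt exon of Csnk1e, a casein kinase, had 80.5 and 74.4 at EB8, against 4.55 and 0 at ESC. The 135-nt exon of Wdr44 was at 100 in both EB8 libraries, against 18.7 and 31.4 at ESC, a call that 1 of the 4 fits with a library left out did not keep. Exons of Enox1 (74 nt), Sept1 (49 nt) and Synrg (86 nt) fell by 92.2, 86.0 and 79.4 points. Among introns, the 88-nt intron of Cfp, the gene of properdin, had 94.1 and 88.9 at EB8, against 12.4 and 19.7 at ESC, and introns of Pou6f1 and Upk1a fell by 77.9 and 77.5 points. Among splice sites, the alternative 3′ site of Gabbr1, a GABA-B receptor subunit, had 8.05 and 9.40 at EB8, against 100 and 87.8 at ESC, and the 5′ site of Chmp3 rose by 65.5 points.

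The course of the line was then tested against that of WT by an interaction term, which asks whether the change from ESC to EB8 differs in size. It called 594 of 13938 genes (4.26%), 242 with a more positive change in Puf60_pEx5_HOM (1.74%) and 352 with a more negative one (2.53%). Without library B of WT at ESC the first of these counts was 136 and the second 339. A difference of course can come from either end. Of the 242 genes, 132 were called lower than WT at ESC and 18 higher than WT at EB8, where such calls covered 209 genes (1.5%) and 30 genes (0.215%) of all tested. Of the 352 genes, 77 were called higher than WT at ESC (135 genes or 0.969% of all) and 135 lower than WT at EB8 (201 genes or 1.44% of all). Of the 242, 121 rose over the course of the line itself, 31 fell and 90 were not called, and of the 352, 127 rose, 120 fell and 105 were not called.

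Several neuronal genes gained less in the edited line than in WT. In the list of transmitters and synapses the median change was 1.66 in Puf60_pEx5_HOM and 2.75 in WT, 4 of 32 differences were positive, and 9 genes were called with a smaller change and none with a larger one. That count was 4 with a pseudocount of 5 CPM and 7 to 12 with 1 library left out. The summed level at EB8 was 354 and 298 CPM in Puf60_pEx5_HOM, against 522 and 572 CPM in WT. At ESC it was 74.2 and 85.6 CPM in Puf60_pEx5_HOM, against 54.0 and 52.1 CPM in WT, so the lines stood apart in opposite directions at the 2 stages. Grin1 had 5.82 and 5.42 CPM at EB8 and 14.9 and 20.4 CPM at ESC in Puf60_pEx5_HOM, against 9.25 and 15.8 CPM at EB8 and 4.31 and 5.62 CPM at ESC in WT (−2.63 ± 0.31, adjusted p = 2.08e-05). Grin1 thus fell in the edited line and rose in WT, and all its ESC libraries of the edited line were above those of WT. Gad1, which makes GABA, and Syn1, a vesicle protein, were also higher than WT at ESC and lower than WT at EB8 in both libraries of the edited line, with differences of −1.96 ± 0.32 (adjusted p = 0.00039) and −1.56 ± 0.16 (adjusted p = 2.82e-06). Snap25 differed by −1.05 ± 0.25 (adjusted p = 0.00698), with 31.4 and 23.4 CPM in Puf60_pEx5_HOM and 54.1 and 54.3 CPM in WT at EB8 and under 1 CPM in every ESC library. Dlg2, Isl1, Slc17a6 and Slc6a5 were also called, by −1.51, −1.49, −1.22 and −1.01. Isl1 is counted here as a list member, although it encodes a transcription factor and not a synapse protein.

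In the list of neurogenesis and young neurons the median change was 3.58 in Puf60_pEx5_HOM and 4.07 in WT, 7 of 31 differences were positive, and 3 were called, all smaller. Mapt, the axonal protein tau, had 65.8 and 57.9 CPM at EB8 and 11.5 and 12.4 CPM at ESC in Puf60_pEx5_HOM, against 162 and 177 CPM at EB8 and 5.73 and 4.77 CPM at ESC in WT. Its change differed by −2.49 ± 0.21 (adjusted p = 3.3e-07). Myt1l, a factor that keeps neurons from other fates, had 20.2 and 14 CPM in Puf60_pEx5_HOM, against 51.1 and 51.4 CPM in WT at EB8, with under 1 CPM in all ESC libraries (−1.61 ± 0.18, adjusted p = 8.13e-06). Rbfox3, the neuronal nuclear antigen NeuN and itself a splicing regulator, had 20.2 and 20.4 CPM in Puf60_pEx5_HOM, against 42.1 and 51.2 CPM in WT at EB8 (−1.09 ± 0.27, adjusted p = 0.00953). All 3 were lower in both EB8 libraries of the edited line than in both of WT. The summed early neuron level at EB8 was 2665 and 2484 CPM in Puf60_pEx5_HOM, against 3441 and 3760 CPM in WT. Among splicing regulators, Rbfox1 and Celf5 were also called smaller in their change, by 1.23 and 1.51 on the log2 scale. Rbfox1 had 10.3 and 8.48 CPM in Puf60_pEx5_HOM, against 29.2 and 25.4 CPM in WT at EB8, and Celf5 13.5 and 12.7 CPM in Puf60_pEx5_HOM, against 32.2 and 37.0 CPM in WT. Srrm4 differed by −0.28 ± 0.21 (adjusted p = 0.457), with 31.7 and 34.4 CPM in Puf60_pEx5_HOM, against 37.0 and 40.2 CPM in WT at EB8.

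Progenitor genes called in this test differed in the other direction, but the list as a whole was mixed. Its summed level at EB8 was 3398 and 3579 CPM in Puf60_pEx5_HOM, against 3372 and 3376 CPM in WT. Vim alone gave 1079 and 1161 CPM of it in Puf60_pEx5_HOM, against 943 and 1013 CPM in WT. The 4 progenitor markers went the other way, with 637 and 620 CPM in Puf60_pEx5_HOM at EB8, against 801 and 714 CPM in WT. Of 18 differences 11 were positive, and 3 genes were called with a larger change, none with a smaller one. These were the intermediate filaments Nes and Vim and the membrane protein Prom1, and each started lower at ESC. Nes had 50.2 and 58.1 CPM at EB8 and 6.77 and 8.59 CPM at ESC in Puf60_pEx5_HOM, against 48.8 and 42.7 CPM at EB8 and 16.4 and 22.5 CPM at ESC in WT (1.47 ± 0.42, adjusted p = 0.0282). Vim and Prom1 differed by 1.2 ± 0.33 and 1.23 ± 0.37 (adjusted p = 0.0226 and 0.0356). None of the 18 was called without library B of WT at ESC, without library A of WT at EB8 or without library B of WT at EB8, and 1 was called without library B of the line at either stage. Retinoic acid genes had none called against WT, with medians of 3.77 in Puf60_pEx5_HOM and 3.71 in WT.

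**Figure D4:**
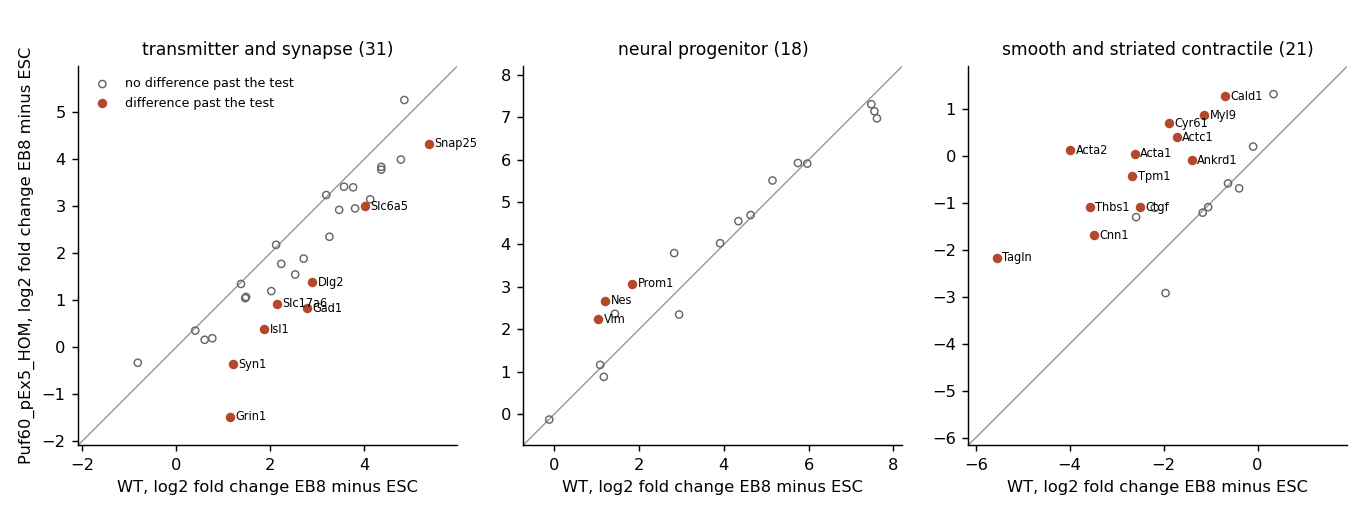
Log2 difference of CPM + 1 (EB8 minus ESC) in Puf60_pEx5_HOM against that in WT for 31 synapse, 18 neural progenitor and 21 contractile genes, 1 point per gene, with a diagonal of equal change and filled, named points where the difference between the lines was called. The named genes of the synapse list, which holds the transcription factor Isl1, lie on the side of a smaller change in Puf60_pEx5_HOM (8 called). The named contractile and progenitor genes lie on the side of a more positive one (12 and 3 called).

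Most contractile and cytoskeletal genes had a more positive change in the edited line than in WT (17 of 21 differences). Tnnt1 went the other way, with a difference of −0.96 ± 0.23 (adjusted p = 0.00843, under 2-fold). It had 16.6 and 13.7 CPM at ESC in Puf60_pEx5_HOM, against 6.14 and 6.32 CPM at ESC in WT. Of 21 in the list 16 fell in WT and 9 in Puf60_pEx5_HOM, where 2 rose (with library totals 3 fell and 4 rose in the edited line, and with a pseudocount of 5 CPM 4 fell). Actg2 is counted as fallen in both lines, with 44.9 and 43.6 CPM at EB8 and 98.7 and 92.2 CPM at ESC in Puf60_pEx5_HOM. Its deposited RPKM was only 0.1 at EB8 and 0.07 at ESC in that line, and 0.06 and 0.21 in WT, so its level is uncertain. The medians were −0.59 in Puf60_pEx5_HOM and −1.89 in WT, and 12 genes were called with a more positive change, none with a more negative one (10 to 14 with 1 library left out). The difference lay mostly at ESC. There the list summed to 709 and 710 CPM in Puf60_pEx5_HOM, against 1466 and 1953 CPM in WT. At EB8 it summed to 620 and 741 CPM in Puf60_pEx5_HOM, against 534 and 552 CPM in WT, a smaller gap but also without overlap. Acta2, smooth muscle actin, had 2.50 and 2.20 CPM at EB8 and 2.76 and 1.51 CPM at ESC in Puf60_pEx5_HOM, against 1.62 and 2.63 CPM at EB8 and 38 and 60.9 CPM at ESC in WT (4.12 ± 0.67, adjusted p = 0.000535). Tagln, an actin cross-linker of smooth muscle, had 3.59 and 5.72 CPM at EB8 and 25.6 and 22.5 CPM at ESC in Puf60_pEx5_HOM, against 1.57 and 3.25 CPM at EB8 and 119 and 200 CPM at ESC in WT (3.39 ± 0.72, adjusted p = 0.00501). Tpm1, a tropomyosin, had 94.8 and 139 CPM at EB8 and 157 and 154 CPM at ESC in Puf60_pEx5_HOM, against 61.6 and 72.2 CPM at EB8 and 357 and 516 CPM at ESC in WT (2.23 ± 0.33). In these 3 genes both WT libraries at ESC stood above the other 6 libraries of the 2 lines, and library B was the higher of that pair. Among the other edited lines at ESC, Acta2 averaged 115 CPM in Puf60_mEx5_HOM, 42.1 CPM in Puf60_pEx5_HET and 21 CPM in Rbm38KO, and Tagln 176, 153 and 84.5 CPM in that order of lines. Tpm1 averaged 397 CPM in Puf60_mEx5_HOM, 466 CPM in Puf60_pEx5_HET and 292 CPM in Rbm38KO. In all 3 genes the Puf60_pEx5_HOM mean at ESC (2.14, 24.1 and 156 CPM) was the lowest of the 5 lines. Cyr61 and Ctgf, matrix proteins induced by tension and serum, differed by 2.59 and 1.42, and Cald1, the actin-binding caldesmon, by 1.96. Mesoderm markers summed to 3.92 and 5.29 CPM at EB8 and 5.28 and 4.92 CPM at ESC in Puf60_pEx5_HOM, against 3.45 and 4.90 CPM at EB8 and 18.1 and 27.8 CPM at ESC in WT, and the WT sum at ESC was mostly T. Meox1 had 1.14 and 0.984 CPM at ESC in Puf60_pEx5_HOM, against 0.373 and 0.53 CPM at ESC in WT, and Tbx6 had 0.863 and 0.59 CPM at ESC in Puf60_pEx5_HOM, against 0.644 and 0.565 CPM at ESC in WT. Of 11 mesoderm and muscle genes none was called with a more positive change than in WT and 1 with a more negative one. T, the gene of brachyury, had 0.0603 and 0.0986 CPM at EB8 and 3.21 and 2.92 CPM at ESC in Puf60_pEx5_HOM, against 0.0285 and 0 CPM at EB8 and 16.3 and 25.8 CPM at ESC in WT (2.50 ± 0.24, adjusted p = 9.84e-07). With T under 1 CPM at EB8 in both lines, its difference mostly restates the lower ESC level. The part of these markers in the contractile levels was not tested.

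The epithelial keratins Krt8 and Krt18 differed at both stages. Krt8 had 84.7 and 114 CPM at EB8 and 60.9 and 68.7 CPM at ESC in Puf60_pEx5_HOM, against 27.2 and 34.5 CPM at EB8 and 226 and 379 CPM at ESC in WT (difference 3.81 ± 0.65, adjusted p = 0.000869). Its partner Krt18 had 68.0 and 97.9 CPM at EB8 and 39.3 and 36.7 CPM at ESC in Puf60_pEx5_HOM, against 26.3 and 32.3 CPM at EB8 and 128 and 227 CPM at ESC in WT (3.59 ± 0.67, adjusted p = 0.00173). In the edited line both keratins stood above WT at EB8 and below WT at ESC, without overlap. Krt17 stood above WT at ESC, with 79.4 and 73.0 CPM in Puf60_pEx5_HOM, against 32.6 and 27.7 CPM in WT. Its change differed by −0.56 ± 0.25 (adjusted p = 0.174) and was not called. The 4 epithelial markers summed to 258 and 379 CPM in Puf60_pEx5_HOM, against 116 and 142 CPM in WT at EB8. Krt7 had 26.4 and 32.5 CPM in Puf60_pEx5_HOM at EB8, against 8.88 and 11.6 CPM in WT at EB8 (2.15 ± 0.52, adjusted p = 0.00985). Krt19 differed by 2.67 ± 0.66 (adjusted p = 0.0139), a call lost in 4 of the 8 fits with a library left out. Of 21 genes of the epithelial list 7 were called with a more positive change and none with a more negative one, and the count was 3 without library B of WT at ESC and 4 without library B of the line at EB8. Adhesion genes of the list were mixed. Cdh1 differed by 0.96 ± 0.63 (adjusted p = 0.382) and Epcam by 0.73 ± 0.65 (adjusted p = 0.547), and neither passed, nor did Cldn6 (0.55). Cldn7, Dsp and Perp were called, by 1.25, 1.15 and 1.37 (adjusted p = 0.00909, 0.0245 and 0.00112).

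Several imprinted genes also started lower and gained more. Of 24 tested, 8 were called with a more positive change than in WT and 1, Usp29, with a more negative one, and the first count was 5 without library B of WT at ESC. Igf2 had 85.1 and 95 CPM at EB8 and 4.07 and 1.87 CPM at ESC in Puf60_pEx5_HOM, against 47.6 and 43.3 CPM at EB8 and 10.7 and 14.4 CPM at ESC in WT (2.79 ± 0.64, adjusted p = 0.00811). H19 had 207 and 185 CPM at EB8 and 9.80 and 7.54 CPM at ESC in Puf60_pEx5_HOM, against 152 and 152 CPM at EB8 and 28.4 and 46.5 CPM at ESC in WT (2.32 ± 0.55, adjusted p = 0.0103). Dlk1, Peg10, Grb10, Peg3, Sgce and Plagl1 differed by 1.59, 1.90, 1.41, 1.40, 1.15 and 1.14. Grb10 overlapped WT at ESC, with 18.9 CPM in library B of Puf60_pEx5_HOM, against 18.05 CPM in that of WT. Sgce ended lower, with 45.1 and 37 CPM in Puf60_pEx5_HOM at EB8, against 51.9 and 46.4 CPM in WT. Levels also varied widely among the other edited lines. At EB8 Grb10 averaged 2.78 CPM in Puf60_mEx5_HOM, 2.08 CPM in Puf60_pEx5_HET and 1.06 CPM in Rbm38KO, against 32.2 CPM in WT. Meg3, the noncoding RNA expressed from the other allele of the Dlk1 domain, had 11.7 and 14.8 CPM at EB8 and 1.73 and 3.02 CPM at ESC in Puf60_pEx5_HOM, against 53.2 and 89.2 CPM at EB8 and 7.39 and 9.18 CPM at ESC in WT. It lay below WT at both stages, and its change differed by −0.82 ± 0.51 (adjusted p = 0.349). In Puf60_pEx5_HET Dlk1 averaged 14.65 CPM at ESC and 17.96 CPM at EB8, where Meg3 averaged 384 CPM. Whether the imprinted differences from WT come from the edit of exon 5 or from variation between lines was not tested.

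Of the genes named, Pga5 and Srgn, outside these lists, had the largest negative differences, and others had smaller ones. Pga5, a pepsinogen, had 0.241 and 0.395 CPM at EB8 and 6.97 and 8.36 CPM at ESC in Puf60_pEx5_HOM, against 10.8 and 6.34 CPM at EB8 and 4.10 and 5.97 CPM at ESC in WT (−3.36 ± 0.68, adjusted p = 0.00303). Srgn, a proteoglycan of secretory granules, had 0.452 and 0.329 CPM in Puf60_pEx5_HOM at EB8, against 14.7 and 10.7 CPM in WT at EB8, with under 1 CPM at ESC in both lines (−3.29 ± 0.69). Adap1, an Arf GTPase-activating protein, had 4.43 and 3.49 CPM at EB8 and 102 and 96.4 CPM at ESC in Puf60_pEx5_HOM, against 11 and 11.4 CPM at EB8 and 49.7 and 52.6 CPM at ESC in WT (−2.25 ± 0.17, adjusted p = 6.09e-08). The clathrin-uncoating factor Dnajc6 and the mitochondrial acetyl-CoA synthetase Acss1 likewise started higher and ended lower in the edited line, by −2.19 and −2.47. Among pluripotency genes, Esrrb had 3.56 and 2.33 CPM at EB8 and 423 and 445 CPM at ESC in Puf60_pEx5_HOM, against 3.84 and 6.34 CPM at EB8 and 258 and 290 CPM at ESC in WT (−1.28 ± 0.33, adjusted p = 0.0145), the 1 call of 29. The Nodal inhibitor Lefty2 had 0.905 and 0.230 CPM at EB8 and 146 and 158 CPM at ESC in Puf60_pEx5_HOM, against 0.114 and 0.170 CPM at EB8 and 31.7 and 38.5 CPM at ESC in WT (−1.67 ± 0.29, adjusted p = 0.000552). Lefty2 was under 1 CPM at EB8 in both lines. On the scale of CPM + 1 its difference therefore mostly restates the higher ESC level, and does not show a steeper fall.

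Few splicing events were called as different in their course between the lines. In limma 1234 of 18100 events had an unadjusted p under 0.05 for the interaction. With so few libraries per group, the small number of calls does not show that the other events took the same course. The interaction called 4 of 18100 events (0.0221%), 3 higher (0.0166%) and 1 lower (0.00552%), and 1 to 6 with 1 library left out. The 81-nt exon of Actn4, in the calcium-binding end of this actin cross-linker, is shown because it is the 1 event that all 8 such fits kept (chr7:28895432-28895512, minus strand, GRCm38, GENCODE vM21, exon in capitals):
Actn4: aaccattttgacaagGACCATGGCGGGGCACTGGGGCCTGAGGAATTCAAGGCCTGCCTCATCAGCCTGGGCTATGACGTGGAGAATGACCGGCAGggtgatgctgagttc
Its PSI was 92.2 and 93.2 at EB8 and 93.5 and 93.5 at ESC in Puf60_pEx5_HOM, against 85.5 and 84.3 at EB8 and 97.4 and 97.1 at ESC in WT. The change was −0.825 points in the edited line (adjusted p = 0.57) and −12.4 points in WT, a difference of 11.5 points (adjusted p = 0.00033, and 0.14 in the unweighted fit). It was −18.5 points in Puf60_mEx5_HOM, −13.4 in Puf60_pEx5_HET and −5.23 in Rbm38KO. A 129-nt exon of Bin1, a membrane-bending protein, had a PSI of 66.9 and 66.8 at EB8 and 74.7 and 77.4 at ESC in Puf60_pEx5_HOM, against 69.4 and 73.6 at EB8 and 47.1 and 39.2 at ESC in WT (−37.5 points, adjusted p = 0.00643, lost in 3 of the 8 fits). A 95-nt exon of Neo1, a guidance receptor, differed by 19 points (adjusted p = 0.0378, lost in all 8), and a 50-nt exon at chr12:17902545-17902594 by 63.9 points (adjusted p = 0.0336, lost in 5 of 8).

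The median gain of microexons was smaller in the edited line than in WT, and no single one passed the test. The median difference between stages was 11.9 points in Puf60_pEx5_HOM and 18.9 points in WT, beside 0.05 and 0.60 points for longer exons. The gain was smaller than in WT in 244 of 328 microexons (74.4%) and in 3394 of 6268 longer exons (54.1%). The median PSI at EB8 was 35.8 and 32.2 in Puf60_pEx5_HOM, against 39.2 and 44.2 in WT, and at ESC 7.11 and 8.81 in Puf60_pEx5_HOM, against 6.14 and 7.23 in WT. Both EB8 libraries of the edited line lay below both of WT in 146 of 328 microexons and above both in 41, beside 1886 and 1385 of the 6268 longer exons. Such separation at EB8 was not particular to microexons. Of 5724 retained introns 554 lay below both WT libraries and 2028 above both. With limma 0 of 328 were called in the interaction. At an unadjusted p under 0.05, 24 of 131 microexons of 3 to 15 nt and 24 of 197 of 16 to 27 nt differed, and 26 and 38 in the unweighted fit, which also called 0. For microexons of 16 to 27 nt, 2 were called with a smaller gain when neither a PSI range nor weights were used, and 1 without library A of the line at ESC. The lowest adjusted p was 0.0645, for the N1 exon of Src shown above. Its PSI was 40.0 and 36.8 at EB8 and 8.56 and 19.9 at ESC in Puf60_pEx5_HOM, against 53.2 and 55.8 at EB8 and 5.92 and 3.94 at ESC in WT, a difference of −25.3 points.

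**Figure D5:**
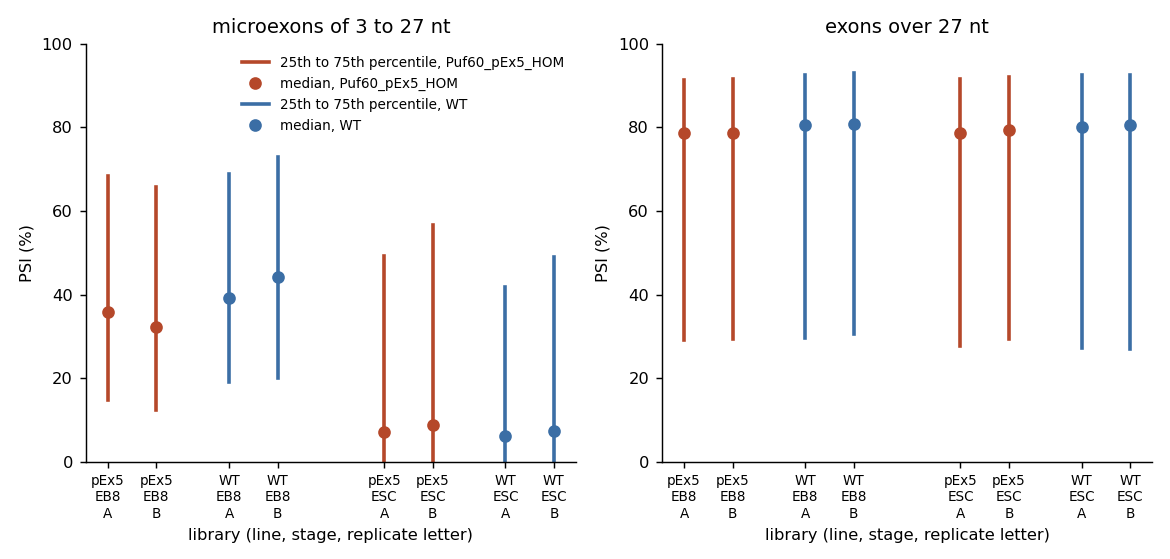
Median percent spliced in (PSI, points) with the 25th to 75th percentile (bars) over 328 microexons of 3 to 27 nt (left) and 6268 longer exons (right) in each library of Puf60_pEx5_HOM and WT at EB8 and ESC. Microexon medians are 35.8 and 32.2 in Puf60_pEx5_HOM and 39.2 and 44.2 in WT at EB8, and 7.11 and 8.81 in Puf60_pEx5_HOM and 6.14 and 7.23 in WT at ESC.

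The other edited lines place these values in a range. The line without exon 5, Puf60_mEx5_HOM, had a median microexon gain of 26.9 points, Puf60_pEx5_HET 23.2 and Rbm38KO 16.5, against 11.9 in Puf60_pEx5_HOM. Median microexon PSI at EB8 was 51.8 and 55.0 in Puf60_mEx5_HOM, 51.3 and 49.4 in Puf60_pEx5_HET and 39.1 and 34 in Rbm38KO, so the libraries of Rbm38KO lay close to those of Puf60_pEx5_HOM. Synapse genes had median changes of 1.66 in Puf60_pEx5_HOM, 3.74 in Puf60_mEx5_HOM, 3.20 in Puf60_pEx5_HET and 2.38 in Rbm38KO, and early neuron genes 3.58, 4.46, 4.41 and 3.89 in the same order of lines. Contractile genes had medians of −0.59 in Puf60_pEx5_HOM, −1.70 in Puf60_mEx5_HOM, −2.23 in Puf60_pEx5_HET and −1.25 in Rbm38KO. Mapt changed by 2.28 in Puf60_pEx5_HOM, 5.70 in Puf60_mEx5_HOM, 5.30 in Puf60_pEx5_HET and 4.26 in Rbm38KO.

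The contrast between the opposite edits of exon 5 was tested in the same fit. The course of Puf60_pEx5_HOM differed from that of Puf60_mEx5_HOM in 1614 of 13938 genes (11.6%), 628 with a more positive change (4.51%) and 986 with a more negative one (7.07%). With library totals the split was 918 and 855, and with a pseudocount of 5 CPM it was 229 and 592. Of 32 synapse genes 21 were called with a smaller change in Puf60_pEx5_HOM and none with a larger one, and of 31 early neuron genes 11 and none. Of 57 splicing regulators 10 had a smaller change and 2 a larger one. Of 21 contractile genes 15 had a more positive change and 1 a more negative one, and of 21 epithelial genes 13 and 1. Of 35 cell cycle genes 14 had a more positive change and none a more negative one, 8 without library B of Puf60_pEx5_HOM at EB8 and 9 without library B of Puf60_pEx5_HOM at ESC, without library A of Puf60_mEx5_HOM at ESC or without library B of Puf60_mEx5_HOM at EB8. Of 25 retinoic acid genes 4 had a more positive change, 2 with a pseudocount of 5 CPM. Hox genes had 1 more positive and 3 more negative of 22, and 0 and 1 with that pseudocount.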

How the data were processed

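RNA was measured in 30 libraries (5 lines, 3 stages, 2 libraries per group), and 20 of them, at ESC and EB8, enter the comparisons. The authors deposited percent spliced in values with a quality string that holds the read numbers behind each value, per the file headers a vast-tools table, and RPKM values with 1 number per group, so these have no error here. The mm10 build, Salmon 0.14.1 and edgeR appear in the submitters' processing notes with no role. For the aligner and strand settings, nothing is given in the sources used here. A further table of group-level PSI was not used.

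Counts per gene were the spliced reads of 189118 introns in the quality strings, summed over 25626 genes. Genes without introns are missed, and read totals of 23204150 to 38571969 per library limit the precision. Scaling was by medians of ratios, and limma 3.58.1 (R 4.3.3, trend and robust) was fitted to log2(CPM + 1) of the 13938 genes that reached 1 CPM in 2 or more libraries, with 15 group means and 15 residual degrees of freedom. Fold changes on this scale understate low genes. For splicing, limma was fitted to log2 of (inclusion + 1) over (exclusion + 1) reads of 20 libraries, with precision weights, for 18100 events with at least 10 reads in each of the 8 libraries of the 2 lines and a mean PSI of 5 to 95. Reference sites of alternative splice site events were dropped after the files were seen. Both fits were tested on simulated data.

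The members and lists were chosen with earlier results of these data known. Genes were named by rule: the 8 largest changes in each direction, up to 3 called members of each list, and the 10 largest differences from WT in each direction, with at least 5 RPKM. For splicing, the rule took the 5 exons, 3 introns and 3 splice sites that moved furthest in each direction and up to 4 differences from WT in each direction. Other genes and microexons named in the text were chosen after their values were seen. Alternatives covered scaling, pseudocount, filters, weights, thresholds, libraries in the fit, a replicate block and leaving out each library. Intervals, floors (3 reads) and bounds cover counting error only. Some genes and 1 sequence are not reported here. Exon sequences are from GENCODE vM21 and promoters from RefSeq (GRCm38.p6).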

Additional observations from a re-analysis of the deposited data

Results flagged for a closer look

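Each result here is a change between EB8 and ESC that differed between Puf60_pEx5_HOM and the line set beside it, by the interaction term in limma. In number these were 594 genes against WT, 1614 genes against Puf60_mEx5_HOM and 4 splicing events against WT. Values are the change in Puf60_pEx5_HOM minus the change in WT, in log2 units of CPM + 1.

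Among genes of muscle and cytoskeleton the change was more positive by 4.12 for Acta2, 3.39 for Tagln, 2.66 for Acta1 and 1.81 for Cnn1. For epithelial genes the differences were 3.81 for Krt8, 3.59 for Krt18, 2.67 for Krt19, 2.15 for Krt7 and 1.37 for Perp. Anxa3 and Anxa1, annexins of epithelia and other cells, differed by 2.78 and 2.49, and T by 2.50. For the imprinted genes the differences were 2.79 for Igf2, 2.32 for H19 and 1.59 for Dlk1.

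More negative changes were those of Pga5 (−3.36), Srgn (−3.29), Gkn2 (−2.59), Mapt (−2.49) and Acss1 (−2.47). Adap1 (−2.25), Dnajc6 (−2.19), Dtx1 (−2.11) and Naaa (−2.11) followed, and among the list members Lefty2 (−1.67), Notch4 (−1.61), Aldh1l1 (−1.31), Esrrb (−1.28), Nphs1 (−1.23), Snap25 (−1.05) and Prdm1 (−1.01). Lefty2 was under 1 CPM at EB8 in both lines, so its value mostly restates its ESC level. Dtx1, a regulator of Notch signalling, had 6.09 and 7.17 CPM at EB8 and 40.4 and 46.7 CPM at ESC in Puf60_pEx5_HOM, against 20.9 and 20.9 CPM at EB8 and 28.3 and 28.9 CPM at ESC in WT. Notch4, a Notch receptor of endothelium, had 9.59 and 6.90 CPM at EB8 and 99.7 and 116 CPM at ESC in Puf60_pEx5_HOM, against 10.1 and 9.40 CPM at EB8 and 41.1 and 40.6 CPM at ESC in WT.

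In PSI the differences were 63.9 points for the 50-nt exon on chromosome 12, 19 points for Neo1, 11.5 points for Actn4 and −37.5 points for Bin1. Exon 5 of Puf60, the edited exon, differed by −8.38 points, an adjusted p that 2 of the 8 fits with a library left out did not keep below the threshold.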

How the results depend on the processing

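Counts of genes changed between EB8 and ESC ran from 3683 (pseudocount 5 CPM) to 6057 (0.5 CPM), and from 5430 to 5577 with 1 library left out. With a pseudocount of 5 CPM the difference from WT held 219 genes (594 as reported) and that from Puf60_mEx5_HOM 821 (1614 as reported). With 1 library left out they ran from 475 to 620 and from 1483 to 1741. Events changed in splicing ran from 1610 (15 points) to 2654 (no PSI range and no weights), and from 1608 to 1918 with 1 library left out. For the splicing difference from WT, the limma fit without weights called 0 events, with 1199 of 18100 at an unadjusted p under 0.05, and 1 to 6 were called with 1 library left out. Puf60 expression changed sign under library totals (0.33) and quantile scaling (0.39), and did not pass with only the libraries compared (−0.20, adjusted p = 0.0718). It ran from −0.28 to −0.18 with 1 library left out, and did not pass without library A at EB8 (adjusted p = 0.0611). The cause of these shifts was not tested. Of the values of single genes and events 1061 kept direction and side of the threshold under other settings and 22 lost the threshold, and 636 and 24 with 1 library left out.

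Deviations of libraries with the same letter had correlations of 0.030 in Puf60_pEx5_HOM and 0.052 in WT over the stages, and between these lines of 0.32 at ESC and 0.057 at EB8. Not every pair is above 0.1, so the letters are not taken as pairs. With a replicate block the counts were 5485 for the course, 587 or 602 for the difference from WT, 1618 or 1621 for that from Puf60_mEx5_HOM, 2377 for splicing and 3 for its difference from WT. With n of 2, low genes and events with few reads are the least certain.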
